A study of Triticum aestivum with 15 samples.

Results

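The comparison described here is that of germinating wheat seed at 24 hours after imbibition (HAI) with seed at 12 HAI, chosen by the stage that the labels give, with 3 arrays at each stage out of 15 arrays and 5 stages in the series. The seed was that of the bread wheat cultivar Jimai 20, and whole seed was used, so that embryo, aleurone and starchy endosperm were measured as 1 mixture. Both groups had the same genotype and no added agent. Per the labels, sterile seeds were steeped in sterile water for the first 12 h and then laid in dishes with a moderate amount of water. The study's methods also state that imbibition took place in the dark, and that incubation at room temperature followed after 12 HAI. Hours after imbibition, the move from steeping to the dish and any change of light or temperature at that point cannot be told apart in this contrast. The other stages (0, 36 and 48 HAI) were used for the common estimate of the spread, and their means are given beside those of 12 and 24 HAI for single genes. The Affymetrix Wheat Genome Array held 61290 probe sets, each a group of short probes for 1 transcript. After 111 AFFX and 64 RPTR controls were set aside, 61115 probe sets were compared.

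A dry wheat seed carries messenger RNA that was made while it matured, much of it for proteins that protect the dried cell and for reserves. After water uptake the embryo makes new RNA and later divides its cells. The embryo releases gibberellin, to which the aleurone layer answers with alpha-amylase and other hydrolases that break down the reserves of the starchy endosperm. Abscisic acid acts against this step and keeps the genes of the maturing seed active. Core histones wrap newly copied DNA, and their genes are mainly read while a cell copies its genome, which makes them a common sign of dividing cells.

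Between 12 and 24 HAI upregulation was called for 20 of 23 probe sets of histones and other chromosome proteins, 9 of 11 of the cell wall and 8 of 12 of tubulins and profilin. Downregulation was called for 15 of 20 probe sets of Em, LEA and dehydrin proteins, 11 of 14 of heat shock proteins and chaperones and 9 of 17 of storage proteins. Some of these are described only by the study's co-expression network, whose genes the study picked on these samples. Without them 7 of 7 were higher for the cell wall. For Em, LEA and dehydrin 11 of 16 were then lower, and for heat shock proteins and chaperones 8 of 9. The other groups named here held none. Of the 61115 probe sets, 8114 were higher at 24 HAI (13.3%) and 9066 were lower (14.8%) at a Benjamini-Hochberg adjusted p under 0.05 in limma, which makes 17180 in all (28.1%). An unadjusted p under 0.05 was found for 21727. The number of falls was the higher one, but the large changes were mostly rises. At least 2-fold changes were called for 5443 rises and 5438 falls, at least 4-fold changes for 2237 and 1041, at least 8-fold changes for 945 and 175, and at least 16-fold changes for 406 and 38. A mean under an intensity of 32 at 12 HAI and of at least 500 at 24 HAI, with a called rise, was found for 125 probe sets, and the reverse for 7.

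Among the 8114 rises, all 3 arrays of 24 HAI lay above all 3 of 12 HAI in 8016 (98.8%), and among the 9066 falls they lay below in 8979 (99%). Over all probe sets, called or not, the arrays of 24 HAI lay above in 18.9% and below in 22.9%. The balance of rises and falls depended on how the arrays were scaled. Rises were 47.2% of the calls with the deposited scaling, 62.4% when the hybridization controls set the scale (8746 higher and 5276 lower) and 60.9% when the poly-A controls did (10598 higher and 6814 lower). Over all probe sets the log2 change had a median of -0.06 with the deposited scaling and 0.08 with either control scaling. No probe set called in 1 direction was called in the other under any of the 16 alternative settings. In whole seed, a lower signal from fewer cells of a type and one from less RNA per cell cannot be told apart.

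**Figure D1:**
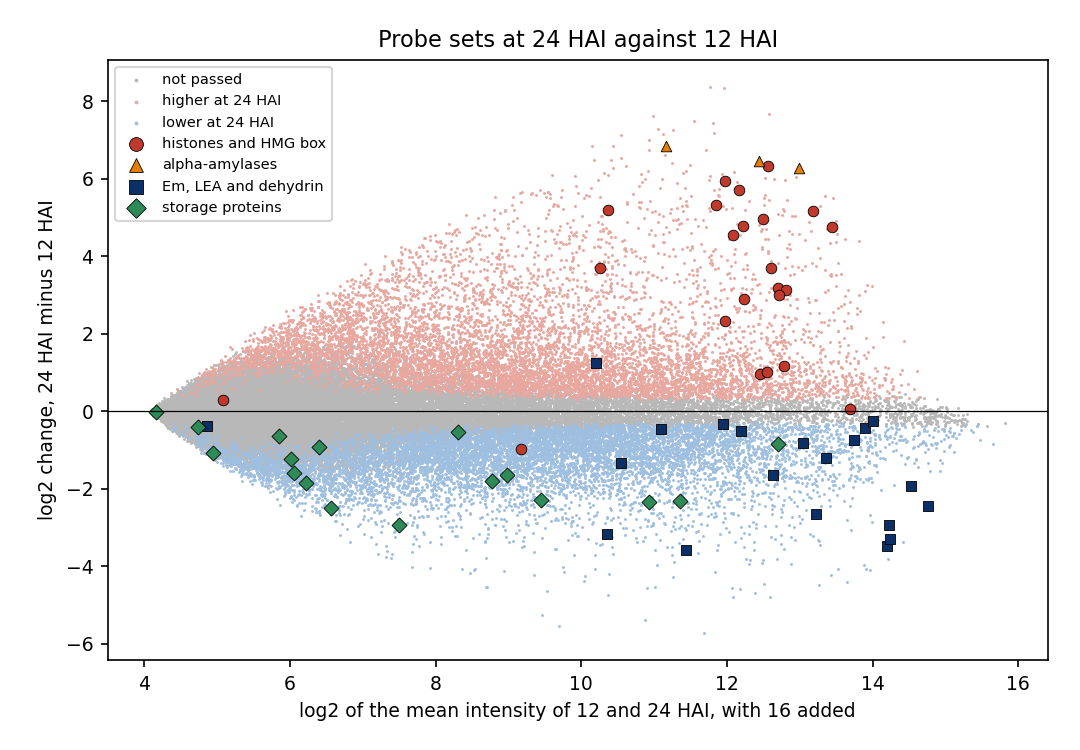
Each point is 1 of 61115 probe sets, with the log2 of its mean intensity over both stages (16 added) on the x axis and its log2 change from 12 to 24 HAI on the y axis, and coloured points passed an adjusted p of 0.05. The histone probe sets reach log2 changes of 6.34 and the 3 alpha-amylase probe sets, chosen by their stage values, 6.86, while those of Em, LEA and dehydrin proteins lie mostly below 0, down to -3.58.

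The arrays of the 2 stages were alike in their overall values, which the scaling to 1 common trimmed mean sets in part. At 12 HAI the arrays had a median intensity of 70.4 ± 2.62 (SD, n = 3), beside 68.7 ± 4.08 at 24 HAI. Under 32 lay 35.9% and then 36.1% of all probe sets. The poly-A controls had a mean log2 intensity of 9.706 to 9.871 on the arrays of 12 HAI and 9.517 to 9.548 on those of 24 HAI. For the hybridization controls these levels overlapped, at 11.76 to 12.3 and 11.61 to 11.82. Arrays of 1 stage correlated at r = 0.957 to 0.969 in log2 over all probe sets and arrays of different stages at r = 0.887 to 0.894. RNA quality was read from control probe sets at both ends of a transcript, whose 3'/5' ratio was 0.591 ± 0.0313 and 0.664 ± 0.0109 for ubiquitin and 12.4 ± 3.45 and 16.1 ± 0.627 for glucose-6-phosphate dehydrogenase, so both means were higher at 24 HAI. For actin it was 0.411 ± 0.303 and 0.296 ± 0.208, for GAPDH 0.223 ± 0.0615 and 0.211 ± 0.135 and for elongation factor EF1a 8.06 ± 13.3 and 1.03 ± 0.85, so these means were lower at 24 HAI. The arrays of the stages overlapped in all of these ratios but that of ubiquitin. The part of RNA quality in the results was not tested. The residual SD of the log2 values was 0.449 in the median over probe sets, and the number of arrays limits the precision. A call was rare where the signal was dim. Among the dimmest 25% of the probe sets 0.635% were higher and 0.988% were lower, and among the brightest 25% 30.4% and 36%.

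A gene name or description was at hand for 340 probe sets of 201 genes, which were sorted by hand into 20 groups by role. These probe sets were brighter than most, since 62.9% of them lay among the brightest 25%, and 106 (31.2%) were higher and 104 (30.6%) lower. These 2 shares, rather than those of all probe sets, are the nearer background for the counts of a group. They include 59 probe sets described only by the study's co-expression network, whose genes the study picked on these samples. The background is therefore not independent of the data. Of the 74 genes with at least 2 probe sets, 15 had all of them higher and 15 all of them lower, 13 had some higher and the others not passed, 14 had some lower and the others not passed, 15 had none that passed, and 2 had calls in both directions. Probe sets whose names end in _x_at or _s_at may bind transcripts of related genes, which matters most for histones, tubulins and gliadins.

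**Figure D2:**
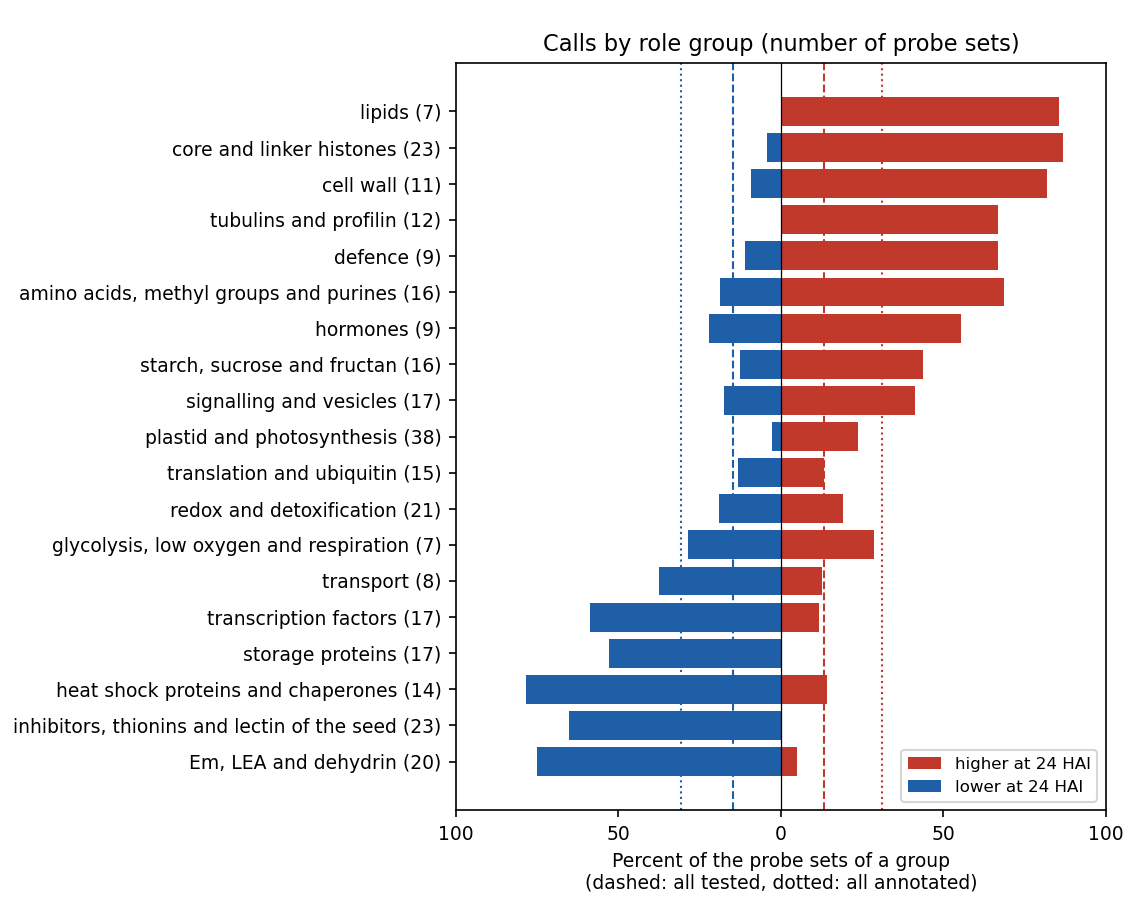
Bars give, for 19 role groups, the percent of the probe sets that were higher (red, right) and lower (blue, left) at 24 HAI, with the number of probe sets in parentheses, dashed lines mark the 13.3% and 14.8% of all probe sets, and dotted lines the 31.2% and 30.6% of those with a name or description. Histone, cell wall, lipid and tubulin groups reach far to the right, and Em, LEA and dehydrin, heat shock and inhibitor groups far to the left.

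Histones and other proteins of the chromosome made up the group with the largest median change. Of 23 probe sets of 8 genes, 20 were higher, 1 was lower and 2 did not pass, with a median log2 change of 3.69, beside -0.06 for all probe sets. Histone H2A-9 (LOC732714), a core histone of the nucleosome, had intensities of 128, 101 and 175 at 12 HAI and 11924, 13031 and 10946 at 24 HAI (6.34 in log2, SE 0.48, adjusted p = 6.4e-07). Here and below the parentheses hold the change in log2 with its standard error (SE) and the adjusted p of limma. The lowest value of 24 HAI lay far above the highest of 12 HAI. This is an _s_at probe set and may read several H2A transcripts. The gene's other 5 probe sets also rose, with log2 changes from 4.55 to 5.20. Histone wcH2B-8 (LOC543184), the partner of H2A in the nucleosome, had 7 probe sets, all of which rose, with log2 changes from 2.34 to 5.96. The probe set with the largest of these changes was at 92.9, 132 and 111 at 12 HAI and 7356, 8033 and 8226 at 24 HAI (5.96 in log2, SE 0.13, adjusted p = 7.16e-11). Histone wcH2B-6 (LOC543183) was already measured well above background at 12 HAI and was at 1287, 1249 and 1363 at 12 HAI and 12687, 10686 and 12409 at 24 HAI, a 9.06-fold rise (3.18 in log2, SE 0.16, adjusted p = 2.25e-08). Histone H2A-2 (LOC732712) went from 139, 163 and 178 to 2099, 2239 and 2423, which was 12.9-fold higher (3.69 in log2, SE 0.14, adjusted p = 2.44e-09). The arrays of the 2 stages did not overlap for any of these histones, which held for 98.8% of all called rises.

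Histone H2A-3 (LOC732713) was measured by a pair of probe sets that went apart. The _at probe set rose 7.39-fold from 978, 1180.1 and 1241 to 8077, 8649 and 8568 (2.88 in log2, SE 0.15, adjusted p = 2.43e-08). The _s_at probe set fell from 696, 754 and 800.5 to 344, 426 and 353 (-0.98 in log2, SE 0.13, adjusted p = 7.12e-05). The latter may also read several transcripts, and which of the pair follows H2A-3 was not tested. Linker histones bind the DNA between nucleosomes. The linker histone LOC606312 went from 12897 ± 376 (SD, n = 3) to 13589 ± 1693, which did not pass (0.07 in log2, SE 0.14, adjusted p = 0.805), after 529 in the dry seed. LOC606310 rose by 0.95 in log2 (adjusted p = 0.00961) in 1 of its 2 probe sets, from 3815 ± 635 to 7338 ± 610.1. The HMG box protein Hmgb3 (LOC543333), which bends DNA, was 2.26-fold and 2.02-fold higher in its 2 probe sets (adjusted p = 3.73e-06 and 1.57e-05). These 3 genes were picked after their values were seen.

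Of 12 probe sets for tubulins and profilin, 8 were higher, 0 were lower and 4 did not pass (median log2 change 0.97). The beta-tubulin Tubb5 (LOC543261), a building block of microtubules, rose in all 4 of its probe sets, with log2 changes from 1.74 to 2.24, and the last of these was at 1918, 1765 and 2047 at 12 HAI and 10029.5, 8568 and 8732 at 24 HAI (2.24 in log2, SE 0.16, adjusted p = 5.11e-07). Tubb4 (LOC543260) rose 1.95-fold, from 2322 ± 136 (SD, n = 3) to 4544 ± 221 (0.96 in log2, SE 0.13, adjusted p = 7.8e-05). Also higher were tubb1 (LOC543257), by 1.68 in log2, and tubb3 (LOC543473), by 0.97 (adjusted p = 3.54e-07 and 1.19e-05). The beta-tubulin tubb2 (LOC543258) and both probe sets of alpha-tubulin (TUBA) did not pass, with log2 changes of 0.33, 0.36 and -0.25.

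Of 11 probe sets for the cell wall, 9 were higher, 1 was lower and 1 did not pass (median log2 change 2.13). Without the 4 described only by the co-expression network, whose genes the study picked on these samples and which are no independent evidence, all 7 were higher. The xyloglucan endotransglycosylase gene XTH, whose enzyme cuts and rejoins the xyloglucans that tie cellulose fibres together, had intensities of 109, 27.4 and 126 at 12 HAI and 2065, 1837 and 1904 at 24 HAI. The 12 HAI values were uneven, with 1 array under 32, yet the groups were 21.3-fold apart (4.41 in log2, SE 0.36, adjusted p = 1.32e-06). Beta-expansin (LOC543145), which loosens the wall in growing cells, was at 763, 669 and 757 at 12 HAI and 5135, 5477 and 5359 at 24 HAI (2.84 in log2, SE 0.18, adjusted p = 1.46e-07). Its mean was 5513 ± 7.70 at 36 HAI and 1085 ± 114 at 48 HAI. The glucan endo-1,3-beta-glucosidase LOC543330, an enzyme that cuts callose and fungal walls, rose 8.47-fold, from 149, 229 and 74.6 to 1219, 1350.4 and 1296 (3.08 in log2, SE 0.26, adjusted p = 1.78e-06). The BRU1-like xyloglucan enzyme CA686606 rose 5.65-fold, from 452 ± 22.7 to 2628 ± 58.5 (2.50 in log2, SE 0.13, adjusted p = 2.73e-08). The fall was that of CK163798, for a glycosyl hydrolase of family 16, a family that also holds xyloglucan enzymes, which went from 2539, 2589 and 2639.7 to 364, 401 and 253 (-2.90 in log2, SE 0.24, adjusted p = 1.56e-06). A further xyloglucan endotransglucosylase (CA610853) did not pass (0.21 in log2, SE 0.13, adjusted p = 0.296). Cellulose synthase CesA3 (LOC542808, chosen after its values were seen) rose 3.30-fold, from 1302 ± 161 to 4310.1 ± 58.6 (1.72 in log2, SE 0.12, adjusted p = 2.66e-07).

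Alpha-amylases, which cut starch into soluble chains, had log2 changes of 6.29, 6.47 and 6.86 in the 3 probe sets found for them. Their probe sets had no gene name in the tables used, and they were found because their stage means followed those that the study lists for the genes, after 1 factor per stage. The values that chose them already held the rise from 12 to 24 HAI, so they are described with no test and were not used as a marker of the aleurone. The alpha-amylase gene CA719001 was at 104, 116 and 105 at 12 HAI and 10785, 11499 and 10746 at 24 HAI. AL820663 was at 249, 131 and 204 at 12 HAI and 16429, 15738 and 15748 at 24 HAI. BF293263 was at 43.0, 6.14 and 29.9 at 12 HAI and 4964, 4331 and 4293 at 24 HAI, and with the values under 32 set to 32 it was at least 128-fold higher. In all 3 genes the arrays of 24 HAI lay far above those of 12 HAI, and the means at 36 HAI were higher again at 16716, 21257 and 9806. In the dry seed the 3 genes were at 271, 540.4 and 156.

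Of 16 probe sets for 9 other genes of starch, sucrose and fructan, 7 were higher, 2 were lower and 7 did not pass (median log2 change 0.52). Alpha-glucan phosphorylase (LOC542862), which releases glucose 1-phosphate from glucan chains, was at 447, 531 and 496 at 12 HAI and 2811, 2995 and 2753 at 24 HAI, a 5.66-fold rise (2.50 in log2, SE 0.11, adjusted p = 8.37e-09), while 1 of its 3 probe sets did not pass (adjusted p = 0.597). The fructan exohydrolase 1-FEH (LOC543441), which frees fructose from fructan, rose 3.82-fold, from 1268, 1408 and 1331 to 4691, 5264 and 5497 (1.93 in log2, SE 0.13, adjusted p = 2.03e-07). The exohydrolase 6-FEH (LOC780575) rose by 1.78 and 0.65 in log2 in 2 probe sets (adjusted p = 0.00388 and 0.000562) and did not pass in the third, and the first of these calls was lost with 1 in place of 16 added (adjusted p = 0.127). The glucose-6-phosphate translocator (LOC542971), which carries sugar phosphate into plastids, rose 1.72-fold (0.78 in log2, SE 0.10, adjusted p = 6.02e-05). Both falls belonged to 2 of the 3 probe sets of the large subunit of ADP-glucose pyrophosphorylase (LOC100037637), an enzyme of starch synthesis, which went from 1005 ± 184 to 570.1 ± 107 (-0.80 in log2, SE 0.19, adjusted p = 0.00594) and did not pass when the hybridization or the poly-A controls set the scale (adjusted p = 0.16 and 0.057). The enzyme's small subunit AGP-S (LOC543299) was at 2749.5 ± 56.3 at 12 HAI and 2771 ± 76.9 at 24 HAI (log2 change 0.01, adjusted p = 0.962). Beta-amylase BMY1 (LOC543318), whose protein is stored in the mature grain, was under 32 at both stages, at 7.37 and 8.81.

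**Figure D3:**
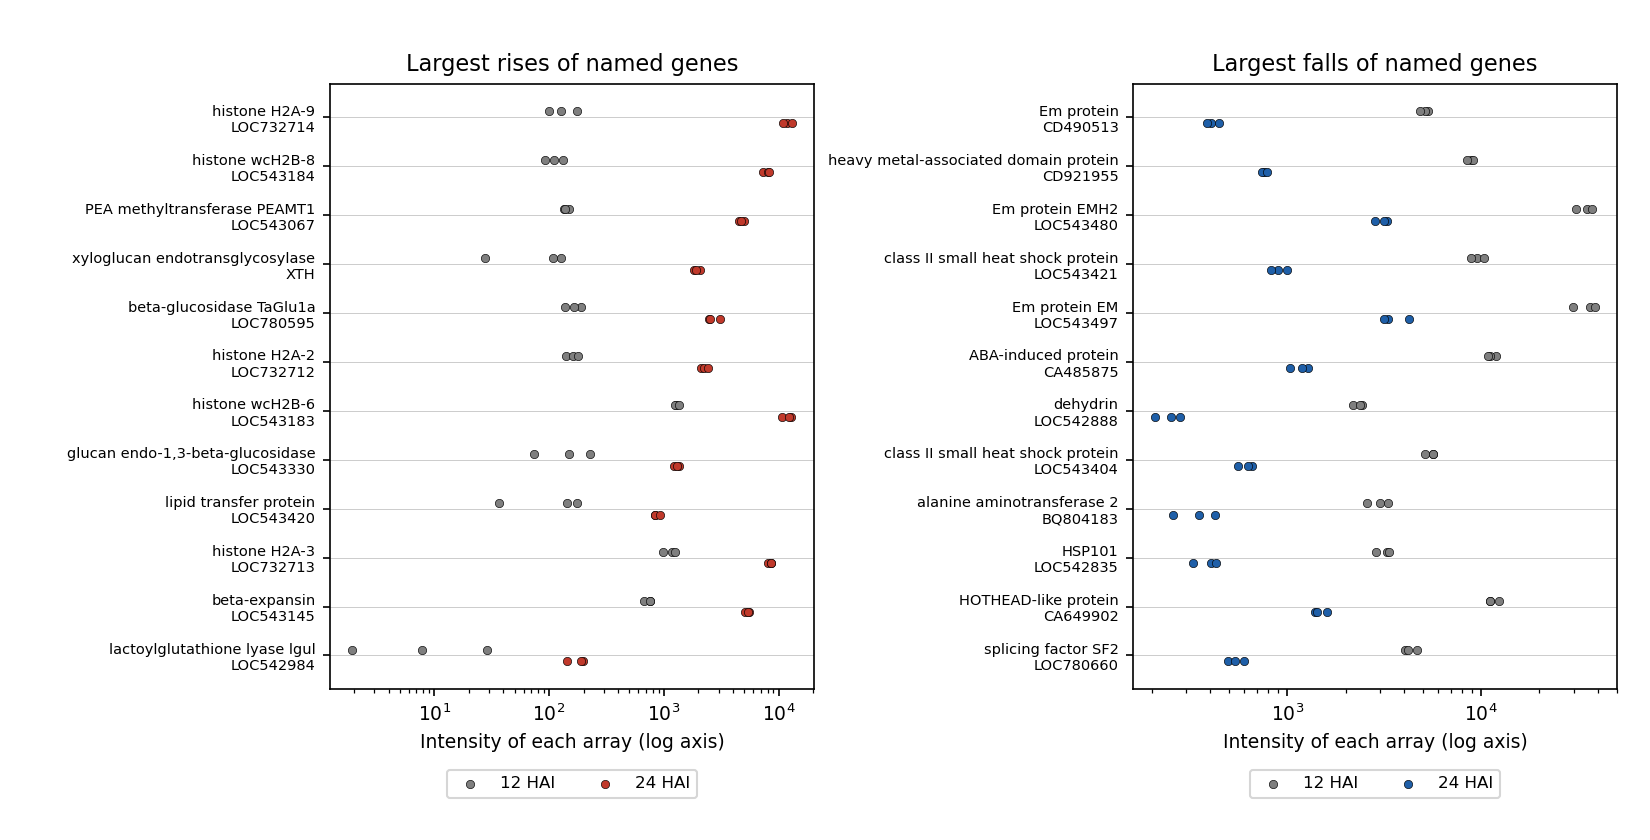
Points give the intensity of each of the 3 arrays at 12 HAI (grey) and 24 HAI (coloured) on a log axis, for the 12 named genes with the largest called rises (left) and falls (right), and PEA stands for phosphoethanolamine. In none of the 24 genes do the arrays of the stages overlap. The genes were picked by the size of a called change, and 98.8% of all called rises and 99% of all called falls had no overlap either.

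Enzymes of amino acids, methyl groups and purines were mostly higher. Of 16 probe sets of 11 genes, 11 were higher, 3 lower and 2 did not pass (median log2 change 1.08). Without the network descriptions 8 of 11 were higher and 1 was lower. Phosphoethanolamine methyltransferase PEAMT1 (LOC543067), which makes the precursor of choline, had the arrays 148, 134 and 137 at 12 HAI and 4547, 4990.2 and 4698 at 24 HAI (4.93 in log2, SE 0.13, adjusted p = 2.46e-10). S-adenosylhomocysteine hydrolase (SAHH), which clears the product of every methyl transfer, was at 6313, 6110.5 and 5826 at 12 HAI and 30810.0, 30542 and 29182 at 24 HAI (2.31 in log2, SE 0.12, adjusted p = 3.24e-08). D-3-phosphoglycerate dehydrogenase (BJ320120), the first enzyme of serine synthesis, rose in all 3 probe sets, by 1.58 to 2.25 in log2. Adenine phosphoribosyltransferase APT1 (LOC543227), which recycles adenine, rose 2.44-fold, from 6509.9 ± 181 (SD, n = 3) to 15926 ± 858 (1.29 in log2, SE 0.13, adjusted p = 1.04e-05). The falls were those of alanine aminotransferase 2 (BQ804183), glutamine synthetase (BJ297605) and the protein isoaspartate methyltransferase PIMT (LOC543193), an enzyme that repairs aged proteins in seeds. Alanine aminotransferase 2, which forms alanine from pyruvate, went from 3014, 3329.7 and 2587 to 257, 349 and 423 (-3.08 in log2, SE 0.22, adjusted p = 4.31e-07). Glutamine synthetase, which binds ammonium, went from 3593, 3323 and 3404 to 531, 642 and 575 (-2.53 in log2, SE 0.12, adjusted p = 1.6e-08). PIMT was 1.56-fold lower (-0.64 in log2, SE 0.15, adjusted p = 0.0054), and its fall did not pass with either control scaling (adjusted p = 0.288 and 0.0637).

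Of 7 probe sets for lipid enzymes and carriers, 6 were higher, 0 were lower and 1 did not pass (median log2 change 1.62). The hydroxyacyl dehydratase FabZ (LOC543338), an enzyme of fatty acid synthesis in plastids, was at 1176, 1196 and 1268 at 12 HAI and 6181, 5791 and 5738 at 24 HAI (2.27 in log2, SE 0.11, adjusted p = 1.18e-08). The lipid transfer protein LOC543420, of a family that carries lipids outside the cell, was at 36.6, 144 and 175 at 12 HAI and 834, 842 and 926 at 24 HAI, so that the 12 HAI arrays were spread widely but stayed below those of 24 HAI (2.91 in log2, SE 0.38, adjusted p = 7.22e-05). LTP3 (LOC543095) rose 3.07-fold (1.62 in log2, SE 0.16, adjusted p = 7.49e-06). A GDSL lipase (BJ253228) rose 1.73-fold (0.79 in log2, SE 0.19, adjusted p = 0.00685). The 2 lipid transfer protein genes had been higher in the dry seed than at 12 HAI, with means of 549 and 1444 against 119 and 604. The step from 0 to 12 HAI was not tested here.

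Of 4 probe sets for gibberellin synthesis 3 rose. Within the hormone group, both probe sets whose description names abscisic acid fell. For 1 of these (CA485875) only the co-expression network gave the description. The gibberellin 20-oxidases make the precursors of active gibberellin. GA20ox1d (LOC543325) was at 79.7, 113 and 94.3 at 12 HAI and 343, 352 and 377 at 24 HAI in 1 probe set (1.75 in log2, SE 0.16, adjusted p = 3.24e-06) and rose 3.98-fold in the other. GA20ox1b (LOC543326) was at 5.93, 46.3 and 12.9 at 12 HAI, with a mean under 32, and at 116, 193 and 126 at 24 HAI, which was at least 3.90-fold higher (2.21 in log2, SE 0.32, adjusted p = 0.000174). GA20ox1a (LOC543327) had overlapping arrays and missed the threshold (0.52 in log2, SE 0.41, adjusted p = 0.432). The ABA response element binding factor LOC542951, a bZIP protein that switches on genes under abscisic acid, went from 12676, 11794 and 12035 to 2408, 2594 and 2773 (-2.23 in log2, SE 0.12, adjusted p = 4.5e-08). The ABA-induced protein gene CA485875 fell 9.58-fold, from 11879, 11139.9 and 10806 to 1033, 1279 and 1185 (-3.26 in log2, SE 0.14, adjusted p = 5.82e-09). Both had means at 12 HAI above those of the dry seed, which were 8426 and 7146. Among the other hormone genes, 12-oxophytodienoate reductase (CN012317), of an enzyme family that includes a step to jasmonate, rose 3.14-fold (1.65 in log2, SE 0.16, adjusted p = 6.51e-06), and an auxin response factor (LOC543452) rose 1.72-fold (0.78 in log2, SE 0.15, adjusted p = 0.00172). ACC oxidase (CK216168), which forms ethylene, went from 1588 ± 76.1 to 2211 ± 115, which did not pass (adjusted p = 0.0547), though its arrays were apart and it passed under 6 of the 16 alternatives. In all, 5 of the 9 probe sets for hormones were higher, 2 lower and 2 did not pass (median log2 change 0.78), and without the network descriptions 4 of 6 were higher and 1 was lower.

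Em proteins, LEA proteins and dehydrins, which are stored in the dry embryo and shield its cells from water loss, were mostly lower at 24 HAI. Of 20 probe sets of 14 genes, 15 were lower, 1 was higher and 4 did not pass (median log2 change -1.28), and without the network descriptions 11 of 16 were lower. The Em protein gene CD490513 had intensities of 5307, 5130.4 and 4820.3 at 12 HAI and 444, 404 and 386 at 24 HAI, an 11.9-fold fall (-3.58 in log2, SE 0.20, adjusted p = 4.49e-08), and its mean was 5.29 at 36 HAI. EMH2 (LOC543480) fell in its 3 probe sets, with changes of -1.94, -2.93 and -3.47 in log2, the last of them from 35057, 37389 and 30813 to 3276, 2822 and 3173 (adjusted p = 1.32e-09). EM (LOC543497) went from 36360.5, 38706 and 29862 to 4235, 3326 and 3148 (-3.29 in log2, SE 0.21, adjusted p = 1.38e-07). The dehydrin LOC542888 was at 2179, 2420.2 and 2371 at 12 HAI and 208, 281 and 253 at 24 HAI (-3.16 in log2, SE 0.35, adjusted p = 1.69e-05). For these 4 genes every array of 24 HAI lay far below every array of 12 HAI. The Lea14-A-like gene CD908263 fell 3.15-fold (-1.66 in log2, SE 0.12, adjusted p = 4.78e-07). The dehydrin Rab15 (LOC543293, chosen after its values were seen) had log2 changes of -0.81, -0.75 and -0.34 in its 3 probe sets, and the last of them did not pass (adjusted p = 0.0918). The LEA protein gene LOC543396 went the other way, from 643, 685 and 721 to 1699, 1643 and 1568 (1.24 in log2, SE 0.12, adjusted p = 5.68e-06). Its mean was 3898 in the dry seed and 684 at 36 HAI.

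Heat shock proteins, which keep other proteins folded and are also laid down during seed maturation, were mostly lower too. Of 14 probe sets for heat shock proteins, their factors and chaperones, 11 were lower, 2 were higher and 1 did not pass (median log2 change -1.57), and without the network descriptions 8 of 9 were lower. The class II small heat shock protein LOC543421 was at 9582, 10315 and 8919 at 12 HAI and 1001, 892 and 821 at 24 HAI (-3.39 in log2, SE 0.14, adjusted p = 5.74e-09). LOC543404, of the same class, was at 5625, 5151 and 5639.96 at 12 HAI and 557, 659 and 629.5 at 24 HAI (-3.12 in log2, SE 0.12, adjusted p = 1.83e-09). HSP101 (LOC542835), which pulls proteins out of aggregates, went from 3279.7, 3366 and 2877 to 404, 328 and 429.8 (-2.99 in log2, SE 0.19, adjusted p = 1.58e-07). Hsp20 family protein LOC543416 fell 6.72-fold (-2.75 in log2, SE 0.15, adjusted p = 4.2e-08). The groups of arrays were apart in each of these, which held for 99% of all called falls. Both rises belonged to CD453856, the delta subunit of the chaperonin TCP1, a complex that folds tubulin and actin, at 1929, 1597 and 1855 at 12 HAI and 4754, 4847 and 4627 at 24 HAI (1.40 in log2, SE 0.12, adjusted p = 2.84e-06).

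Transcripts of storage proteins, which are laid down in the developing endosperm, were lower or did not pass. The same held for inhibitors, thionins and lectin of the seed, and none of either group was called higher. For gliadins, glutenins and avenin-like proteins, 9 of 17 probe sets were lower and 8 did not pass (median log2 change -1.58). The gliadin LOC543211 was at 4354, 4489 and 4165 at 12 HAI and 971, 783 and 812 at 24 HAI (-2.33 in log2, SE 0.13, adjusted p = 5.14e-08). LOC543212 went from 2632, 3286 and 3789.5 to 539, 682 and 656 (-2.33 in log2, SE 0.29, adjusted p = 4.21e-05), and its other probe set did not pass (log2 change -0.54, adjusted p = 0.294). The gliadin LOC543210 fell at least 7.03-fold, from 323, 375 and 197 to 66.8, 9.94 and 13.5 (-2.93 in log2, SE 0.36, adjusted p = 4.36e-05), and the avenin-like protein LOC780582 fell at least 4.50-fold (-2.51 in log2, SE 0.38, adjusted p = 0.000226). For inhibitors, thionins and lectin, 15 of 23 probe sets were lower and 8 did not pass (median log2 change -1.21). The bright xylanase inhibitor XIP-I (LOC542997) had smaller changes of -0.83 and -0.76 in log2, the first from a mean of 33558 to 18711. A gamma-thionin-like gene (LOC100125699) went from 16621 to 11626 (-0.51 in log2) in its bright probe set and changed by -1.75 in its dim one. Both genes were added after their values were seen. The serpin WSZ1b (LOC100037548), which blocks proteases, went from 644, 306 and 604 to 132, 70.1 and 89.3 (-2.21 in log2, SE 0.41, adjusted p = 0.0012) in an _s_at probe set, and its other probe set did not pass (-1.14 in log2, SE 0.62, adjusted p = 0.22). The alpha-amylase/trypsin inhibitor LOC543281 was at 165, 114 and 161 at 12 HAI and 12.8, 34.0 and 24.0 at 24 HAI, with a mean under 32 at 24 HAI, so that it fell at least 4.43-fold (-2.06 in log2, SE 0.41, adjusted p = 0.00192). The purothionins, which are toxic to microbes, fell at least 2.83-fold in THI1.2 and at least 2.79-fold in LOC543413 (adjusted p = 0.00497 and 0.00151), and the second probe set of LOC543413 did not pass (adjusted p = 0.235).

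The summed intensity of each list of cell type markers differed between the stages. The 17 storage protein probe sets of the starchy endosperm summed to 18802 to 20813 on the arrays of 12 HAI and to 7144 to 7405 on those of 24 HAI, with 3 and 9 of them under 32. The 20 probe sets of Em, LEA and dehydrin summed to 289648 to 341477 and to 90421 to 106146. The 23 histone and chromosome probe sets summed to 35669 to 37208 and to 208018 to 214781. The arrays of the 2 stages did not overlap in any of the 3 sums. Under 32 were 1 and 1 of those of Em, LEA and dehydrin, and 1 and 1 of the histone probe sets. How far a change in the make-up of the seed entered the single results was not tested.

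Transcription factors were mostly lower. Of 17 probe sets of 11 genes, 10 were lower, 2 higher and 5 did not pass (median log2 change -0.62), and without the network descriptions 6 of 11 were lower. The zinc finger protein WZF1 (LOC543182) had the largest fall, with 2634, 2589 and 2934 at 12 HAI and 447, 469 and 562 at 24 HAI (-2.43 in log2, SE 0.15, adjusted p = 1.29e-07), and its mean was 1466 in the dry seed. A factor of the SBP family like teosinte glume architecture 1 (BJ293947), a maize gene that shapes the grain case, fell 3.04-fold (-1.60 in log2, SE 0.14, adjusted p = 1.75e-06). The Myb-related gene LOC780670 fell in all 3 probe sets, the largest change being 2.85-fold (-1.51 in log2, SE 0.11, adjusted p = 3.45e-07), and the AP2 domain gene CA688294 fell 2.61-fold (-1.38 in log2, SE 0.24, adjusted p = 0.000811). The rises were those of a homeobox leucine zipper gene (LOC780585), from 3578 ± 132 (SD, n = 3) to 5755 ± 394 (0.68 in log2, SE 0.11, adjusted p = 0.00049), and of a gene like BABY BOOM (LOC543014), an AP2 factor that can start embryo growth in Brassica and Arabidopsis, from 1066 ± 44.5 to 1596 ± 124 (0.57 in log2, SE 0.11, adjusted p = 0.00189).

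Genes of low oxygen and of energy metabolism were few among those with a name. The non-symbiotic hemoglobin LOC543085, which clears nitric oxide in cells short of oxygen, had intensities of 13475, 13678 and 13066 at 12 HAI and 2400.2, 2532 and 2370.4 at 24 HAI, a 5.48-fold fall (-2.45 in log2, SE 0.13, adjusted p = 3.36e-08). The mitochondrial porin LOC543311, a pore of the outer membrane, rose 1.54-fold from 3769.8, 3694 and 3877 to 5857, 5361 and 6293 (0.62 in log2, SE 0.11, adjusted p = 0.00071). The non-phosphorylating glyceraldehyde-3-phosphate dehydrogenase GAPN, which makes NADPH beside glycolysis, went from 3219, 3486 and 3449 to 528, 538 and 735 (-2.48 in log2, SE 0.15, adjusted p = 8.18e-08). Isocitrate dehydrogenase CA599682 rose 2.32-fold (1.22 in log2, SE 0.33, adjusted p = 0.0146), but not without replicate 2 of 24 HAI (adjusted p = 0.0565). Phosphoglycerate kinase Pgk-1 (LOC543496) went from 834 ± 64.5 to 1098 ± 78.7, which did not pass (adjusted p = 0.0599). The probe set of phosphofructokinase (PFK) was dim, with means of 32.7 and 6.72, and did not pass (adjusted p = 0.382). In all, 2 of 7 probe sets were higher, 2 lower and 3 did not pass (median log2 change -0.03). These counts do not cover the study's genes of phosphofructokinase, pyruvate kinase, pyruvate decarboxylase and alcohol dehydrogenase, which have no value here. For those genes the study lists lower values at 24 than at 12 HAI.

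Of 38 probe sets of 8 genes for proteins of the plastid and photosynthesis, 9 were higher, 1 lower and 28 did not pass (median log2 change 0.18). Both shares lay below those of all named probe sets, and 18 probe sets had a mean under 32 at both stages. Of these probe sets 28 belonged to rbcL alone, and of the 10 of the other 7 genes 5 were higher, 0 lower and 5 did not pass. The Rieske protein petC, which carries electrons between the photosystems, was at 93.4, 189 and 129 at 12 HAI and 635, 552 and 469 at 24 HAI (1.93 in log2, SE 0.39, adjusted p = 0.0021). The photosystem II protein PsbP (LOC543290) was at 14.5, 3.37 and 48.1 at 12 HAI and 185, 125 and 99.1 at 24 HAI in 1 probe set, at least 3.59-fold higher (2.14 in log2, SE 0.49, adjusted p = 0.00514), and the thioredoxin Trx-M (LOC542973), which switches on enzymes of the chloroplast in light, was at 5.90, 5.17 and 2.29 at 12 HAI and 77.2, 74.0 and 97.5 at 24 HAI (2.27 in log2, SE 0.20, adjusted p = 3.07e-06). The second probe sets of petC and PsbP did not pass (adjusted p = 0.965 and 0.956). The means of the 3 genes at 48 HAI were 1199.98, 1124 and 288. The large subunit of Rubisco (rbcL, LOC100049018), which binds carbon dioxide, was higher in 4 of its probe sets and lower in 1, and 23 did not pass. The largest of its rises was 1.76 in log2 (adjusted p = 0.00359). A probe set well above background rose 2.07-fold, from 14918, 17309.8 and 16366 to 33212, 33928 and 33372 (1.05 in log2, SE 0.11, adjusted p = 1.17e-05), and another fell, with a mean of 45.4 at 12 HAI and 11.5 at 24 HAI (-1.21 in log2, SE 0.26, adjusted p = 0.00307).

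Among genes of defence and of redox control, the beta-glucosidase TaGlu1a (LOC780595), which frees the toxin of benzoxazinoid glucosides in young shoots, had 191, 165 and 137 at 12 HAI and 3056, 2459 and 2529.7 at 24 HAI (3.91 in log2, SE 0.20, adjusted p = 2.69e-08). PR5 (LOC543292) was at least 3.51-fold higher, from 8.93, 22.9 and 6.12 to 137, 126 and 81.8 (2.21 in log2, SE 0.32, adjusted p = 0.000146), and so was a probe set of the PR1 family (LOC543422), at least 3.03-fold (2.25 in log2, SE 0.20, adjusted p = 2.49e-06), while 1 of its 3 probe sets did not pass (adjusted p = 0.365). The means in the dry seed were 270.05 and 475. Of the 9 probe sets for defence, 6 were higher, 1 lower and 2 did not pass, and 6 of 8 were higher without the network descriptions. A germin-like protein (LOC543438) rose 2.30-fold, from 2471, 2254 and 2534 to 5619, 5228 and 5940.5 (adjusted p = 1.48e-05), and did not pass in its other probe set (adjusted p = 0.0509), and the fall was that of the P21 protein CA712839 (-1.63 in log2, SE 0.12, adjusted p = 4.32e-07). The lactoylglutathione lyase lgul (LOC542984), which removes methylglyoxal, was at 1.92, 7.77 and 29.1 at 12 HAI and 142, 197 and 188.5 at 24 HAI, at least 5.44-fold higher (2.83 in log2, SE 0.30, adjusted p = 1.2e-05), and did not pass in its second probe set (adjusted p = 0.175). The flavoprotein WrbA (BJ294874), a quinone reductase, was at 171, 39.8 and 120.4 at 12 HAI and 491, 512 and 549.6 at 24 HAI (2.25 in log2, SE 0.47, adjusted p = 0.00274), far below its mean of 5345 in the dry seed. The 2-Cys peroxiredoxin TSA (LOC542768), which breaks down peroxide, rose 1.79-fold (0.84 in log2, SE 0.10, adjusted p = 3.86e-05) in 1 probe set and did not pass in the other. A glutathione transferase like GSTF2 (LOC100037523), of a family that joins glutathione to toxic compounds, rose 2.07-fold (1.05 in log2, SE 0.14, adjusted p = 8.44e-05). One like GSTU6 (LOC542993) fell in its 3 probe sets, and the largest of these falls was from 2964, 3686 and 4447 to 1217, 1586 and 1433 (-1.37 in log2, SE 0.27, adjusted p = 0.00193). The remaining fall was that of the 1-Cys peroxiredoxin PER1 (LOC543108) (-0.59 in log2, SE 0.20, adjusted p = 0.047), whose other probe set did not pass (adjusted p = 0.118) and whose call was lost under 11 of the 16 alternatives. Redox genes had 4 of 21 probe sets higher, 4 lower and 13 not passed (median log2 change 0.25), both below the shares of all named probe sets.

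Signalling, transport and translation held changes in both directions. Of 17 probe sets for signalling and vesicles, 7 were higher, 3 lower and 7 did not pass, and 3 of 12 were higher and 2 lower without the network descriptions. The small GTPase Rab11C (CA502550), which guides vesicles to the cell surface, was at 332, 304 and 250.4 at 12 HAI and 1468, 1319 and 1279 at 24 HAI (2.15 in log2, SE 0.37, adjusted p = 0.000639), and the EF-hand protein CCD1 (LOC542847), which binds calcium, went from 7491, 7612 and 6486 to 2101, 2007 and 2024 (-1.80 in log2, SE 0.12, adjusted p = 2.25e-07). The inositol trisphosphate kinase CD917325 fell 6.40-fold (-2.68 in log2, SE 0.20, adjusted p = 6.15e-07). Smaller rises were called for a calcium-dependent protein kinase (LOC780573, 0.95 in log2) and the EF-hand proteins CA649522 (0.96) and CA651217 (0.63), the last of which lost its call whichever array was left out. All 4 probe sets of the 14-3-3 protein LOC543463, an adaptor of phosphorylated proteins, did not pass, with log2 changes from 0.14 to 0.22. The vacuolar cation/proton exchanger CD452864 fell 2.60-fold (-1.38 in log2, SE 0.11, adjusted p = 1.38e-06), the amino acid transporter CA645831 fell 2.22-fold (-1.15 in log2, SE 0.18, adjusted p = 0.000334), and the zinc and iron transporter CD373830 fell 2.11-fold (-1.08 in log2, SE 0.14, adjusted p = 9.17e-05), all 3 described by the network table alone. The rise of the two-pore channel TPC1 (LOC543074, 0.89 in log2, adjusted p = 0.0204) was lost without replicate 1 of 12 HAI or without replicate 2 or 3 of 24 HAI. The proton pump ha1 (LOC543149) of the plasma membrane did not pass in its 3 probe sets, with log2 changes from 0.01 to 0.25. Of 15 probe sets for translation and ubiquitin, 11 did not pass, among them elongation factor TEF1 (LOC543386), at 28316 ± 2266 at 12 HAI and 29024 ± 893 at 24 HAI. The ubiquitin activating enzyme CA620843, which starts the tagging of proteins for breakdown, rose 4.04-fold from 2126, 1991 and 1924 to 8409.7, 8219 and 7932 (2.02 in log2, SE 0.18, adjusted p = 2.31e-06), and a polyubiquitin gene, BJ291458, fell 3.32-fold (-1.73 in log2, SE 0.36, adjusted p = 0.0028). Initiation factor eIF4B (LOC543417) rose 1.46-fold (0.55 in log2, SE 0.10, adjusted p = 0.00102). The cap-binding protein NCBP (LOC100049030) fell 1.53-fold (-0.61 in log2, SE 0.10, adjusted p = 0.000634), but not when the hybridization controls set the scale (adjusted p = 0.288).

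A further 40 probe sets of 27 genes belonged to none of these groups, and 4 of them were higher, 19 lower and 17 did not pass (median log2 change -0.55). Without the network descriptions 4 of 25 were higher and 6 were lower. The heavy metal-associated domain protein CD921955 had 8892, 9071 and 8462 at 12 HAI and 755, 741 and 783 at 24 HAI (-3.51 in log2, SE 0.13, adjusted p = 1.91e-09), after 35469 ± 3244 (SD, n = 3) in the dry seed. The HOTHEAD-like protein CA649902 was at 11092, 12348 and 11152 at 12 HAI and 1384, 1428 and 1609.98 at 24 HAI (-2.96 in log2, SE 0.11, adjusted p = 2.04e-09), and the splicing factor SF2 (LOC780660), which helps to choose splice sites, fell 7.75-fold (-2.95 in log2, SE 0.16, adjusted p = 3.37e-08). In each case the arrays of 24 HAI lay below those of 12 HAI by several-fold. Also lower in this set were 4 genes of the study's tables, with changes of -1.24 in log2 for an NAD-dependent epimerase (CA632030), -1.40 for a homolog of the Shwachman-Bodian-Diamond protein (BJ282439), -1.51 for an aldehyde dehydrogenase (BU099360) and -1.62 for a cytochrome P450 of family 78A (CK208119). Their adjusted p were 0.00142, 3.82e-06, 2.4e-06 and 0.0012, and a second probe set of BU099360 did not pass (adjusted p = 0.0689).

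**Figure D4:**
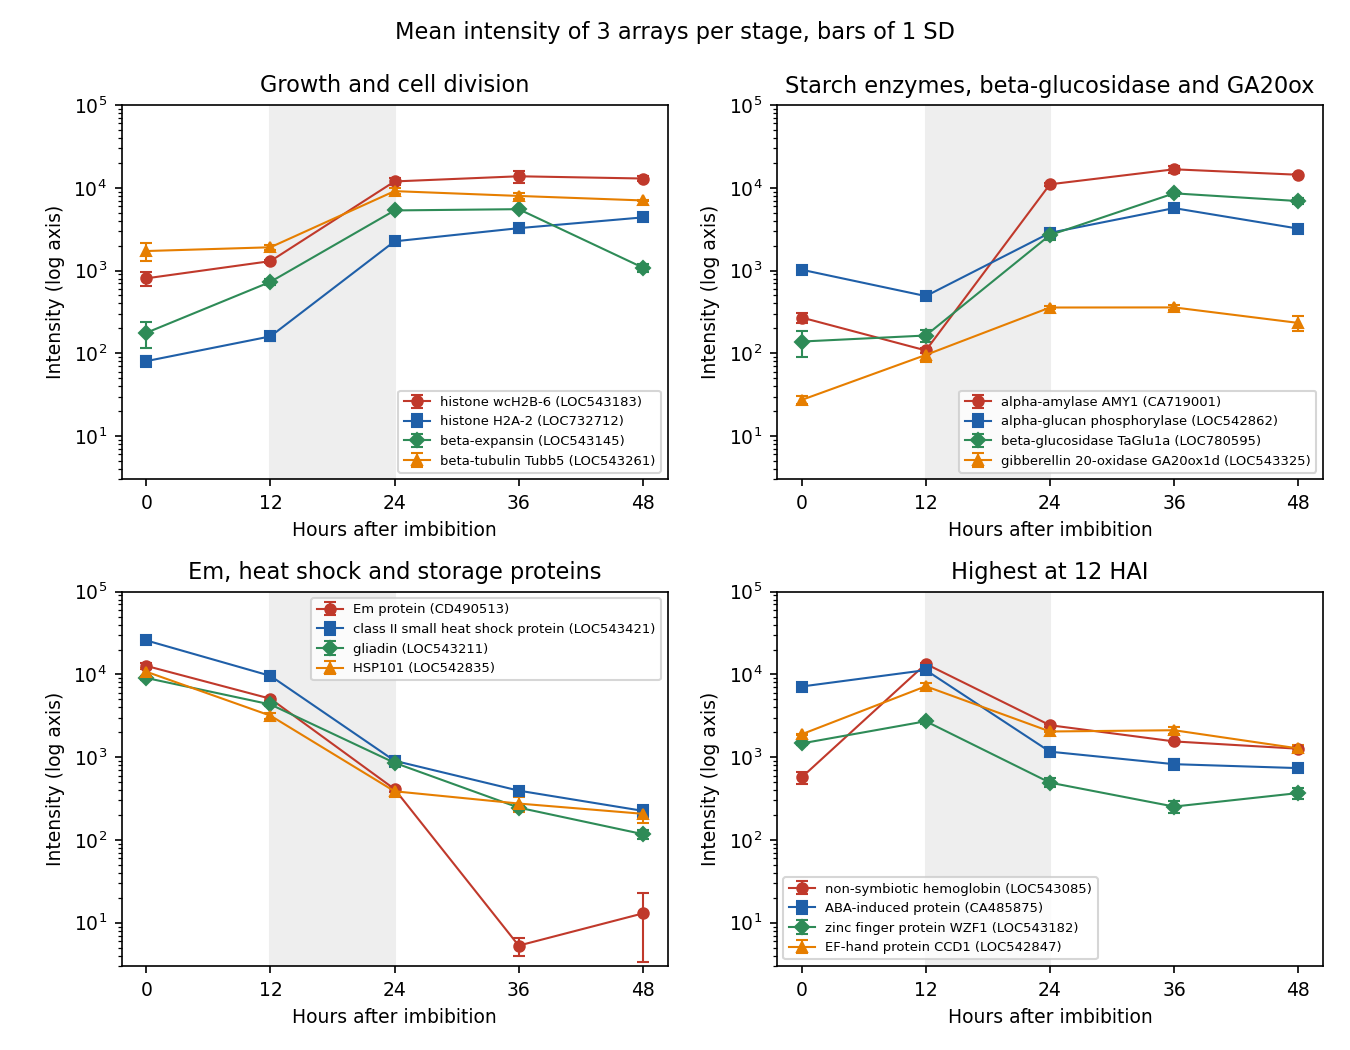
Points give the mean intensity of 3 arrays at each of the 5 stages on a log axis, bars give 1 SD, and the grey band marks the interval from 12 to 24 HAI. The upper panels hold genes with higher means at 24 than at 12 HAI, the lower left panel genes whose mean was highest in the dry seed, such as HSP101 from 10781 to 3174, and the lower right panel genes whose mean was highest at 12 HAI, such as the hemoglobin at 13406.

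Genes that fell from 12 to 24 HAI differed in the stage at which their mean was highest, a description added after the values were seen. Of the probe sets called lower, all 15 of Em, LEA and dehydrin, all 11 of heat shock proteins and 8 of 9 of storage proteins had their highest mean in the dry seed, the exception being the avenin-like protein gene LOC100125692. The same held for 12 of 15 of inhibitors, thionins and lectin, 17 of 19 of the ungrouped genes and 82 of all 104 annotated falls, so that the share of the storage proteins was near that of all. The hemoglobin LOC543085, the ABA-induced protein CA485875, WZF1, CCD1 and the ABA response element binding factor had their highest mean at 12 HAI, with 570.2, 7146, 1466, 1892 and 8426 in the dry seed and 13406, 11275, 2719, 7196 and 12168 at 12 HAI. These courses are descriptions, since the steps other than 12 to 24 HAI were not tested here.

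The largest changes of all lay in probe sets with no gene name. The probe set with the largest rise in log2 went from 5.34, 4.73 and 4.42 to 5731, 7518 and 7469, at least 214.1-fold (8.37 in log2, SE 0.14, adjusted p = 9.13e-12). Another rose at least 245-fold, from 1.06, 33.1 and 1.51 to 8023, 7859 and 7926 (8.34 in log2, SE 0.32, adjusted p = 2.21e-09). Its mean was 562 ± 35.4 (SD, n = 3) by 48 HAI. The probe set with the largest fall went from 6699, 6463 and 6179 to 163, 87.5 and 82.8 (-5.72 in log2, SE 0.35, adjusted p = 1.18e-07). Another, at 16.86 in the dry seed, went from 1757, 1629 and 1434 to 37.8, 8.85 and 15.4, at least 47.3-fold lower (-5.54 in log2, SE 0.40, adjusted p = 4.22e-07). These 4 were chosen after their values were seen. No name or description was at hand for 60775 of the 61115 probe sets compared.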

How the data were processed

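Total RNA of dry and imbibed seed was hybridized to 15 arrays, labelled as biological replicates, 3 a stage. The deposited values are linear intensities from MAS 5.0, which the authors brought to 1 common trimmed mean (500.1 on each array). No step before these values was repeated.

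Values were taken as log2 after 16 was added, so folds of dim probe sets are understated. Folds in the text come from these log2 changes. Where a stage mean was under 32, the fold is a bound ("at least"), from mean log2 intensities with values under 32 set to 32. All 15 arrays were fitted as 5 stages in limma 3.58.1 (R 4.3.3, lmFit and eBayes without trend), and the contrast of 24 with 12 HAI was adjusted over 61115 probe sets with the Benjamini-Hochberg method (threshold 0.05, two-sided). The step was tested on simulated data. Python 3.11.15 with pandas 2.3.3, numpy 2.4.6 and matplotlib 3.10.9 served for tables and plots.

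Gene names came from GEO's platform annotation, in which 1273 probe sets have 1 symbol, from RefSeq gene records, and from descriptions in the study's supplement (rice matches of at least 80 bits). For 59 probe sets of 49 genes only the study's co-expression network table gave a description. Role groups were assigned by hand to all 201 described genes. The members, groups and tests were chosen with earlier results of these data known. Named by rule were the 12 largest called rises and falls, up to 4 called rises and falls a group, and accessions that the study lists in its tables of pivotal and qPCR genes. The accessions BE398394, BE416493, BJ216862, BJ242162 and MC392339 were not matched and have no value here. Further genes of the study's table of important genes also have no value here. They are CD866884 (phosphofructokinase), BJ252827 and CK207050 (pyruvate kinase), CD868238 (alcohol dehydrogenase), CD934753 (pyruvate decarboxylase), CD491538 (UGPase) and M26672.1 (sucrose synthase). The same holds for its meristem genes CK202188, BJ272365, CK201893 and CD869453. Matching by stage values was not applied to any of them. Alpha-amylases were matched by stage values, outside the rule, with a largest deviation of 0.00245 in log2 against 0.265 for the next nearest probe set. Some genes that did not pass, the rising rbcL probe set and the second probe sets of a gene were also named outside the rule. Alternatives tried were other added values, a filter on dim probe sets, an intensity trend, only the 6 arrays, the replicate number as a block, 4 scalings and leaving out each array.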

Additional observations from a re-analysis of the deposited data

How the results depend on the processing

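No named probe set turned its direction under the 16 alternatives, and of 1664 pairs of a named probe set and an alternative 1630 kept their side of the threshold, 28 lost it and 6 gained it. The falls dropped from 9066 to 5276 when the hybridization controls set the scale, and the median log2 change turned from -0.062 to 0.075 with that scaling and to 0.076 when the poly-A controls set it. These scalings bring the controls of all arrays to 1 level, and the poly-A controls were lower on every array of 24 HAI than on any of 12 HAI. Why the control levels differed, and their part in the counts, was not tested. All 6 gains were those of ACC oxidase. Losses were most frequent for the 1-Cys peroxiredoxin PER1 (LOC543108, log2 change -0.59, adjusted p = 0.047), the EF-hand protein CA651217 (0.63, adjusted p = 0.0409) and the two-pore channel TPC1 (LOC543074, 0.89, adjusted p = 0.0204), which lost their calls under 11, 7 and 3 alternatives. PER1 lost its call without replicate 2 or 3 of the 12 HAI arrays, or 1 or 2 of those at 24 HAI. CA651217 lost it whichever of the 6 arrays was left out, and TPC1 without the first array of 12 HAI, or the 24 HAI arrays 2 or 3. Of 640 counts for a role group, 26 moved by over 1.5 times, and all of them were counts of 7 or fewer. Leaving out 1 array gave 7265 to 7545 rises, 7846 to 8227 falls and a median log2 change of -0.099 to -0.043.

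The replicate numbers were not taken as pairs. Dim probe sets, with a mean intensity under 32 over both stages, were left out of this comparison. Arrays with the same number deviated together with r = 0.0350, 0.0183 and 0.0278, all under 0.1. The other pairs lay between -0.0307 and 0.0042, so that each array correlated best with its own number. With the replicate block 8045 probe sets were higher and 9014 were lower, and no named gene changed its call.

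No image files were analysed, so detection was judged by the intensity alone. A mean under 32 at both stages was found for 27.9% of the probe sets, and changes below that level could not be measured reliably. These probe sets were still tested, and some were called. With them left out, 8036 of the 8114 rises and 8954 of the 9066 falls were called.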
